A study of Mus musculus with 24 samples.

Results

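Expression of 32 genes of vascular endothelial and mural cells was examined in the liver and hypothalamus of obese ob/ob mice that received γ-oryzanol or its vehicle. The genes were taken as a list by symbol, and every probe set that the array annotation assigns to 1 of these symbols alone was used, which gave 59 of the 45101 probe sets on the array and 32 of the 18194 genes that it annotates in this way. By role, 6 genes with 12 probe sets belong to the liver sinusoid (Stab1, Stab2, Lyve1, Clec4g, Fcgr2b and Oit3), and 4 genes with 7 probe sets belong to brain vessels (Cldn5, Slco1a4, Slc2a1 and Abcb1a). A further 16 genes with 26 probe sets are of general endothelium (Pecam1, Cdh5, Kdr, Flt1, Tek, Tie1, Eng, Emcn, Esam, Egfl7, Erg, Sox17, Sox18, Vwf, Plvap and Robo4), and 6 genes with 14 probe sets are of mural cells (Acta2, Tagln, Myh11, Pdgfrb, Rgs5 and Cspg4).

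Male ob/ob mice, which lack functional leptin in every cell, had free access to food and water. They were treated by mouth for 4 weeks from 5 weeks of age, so that tissues were taken at 9 weeks. In the regular arm, γ-oryzanol was given in methylcellulose and compared with methylcellulose. In the nano arm, γ-oryzanol encapsulated in nanoparticles of the polymer PLGA (Nano-Orz) was given in water and compared with a vehicle that the titles name only as nano vehicle. Each of the 8 groups, defined by tissue, arm and treatment, had 3 arrays from 3 mice. The methods describe these mice as representative animals picked from larger groups. No lean mice were among the array groups, and no group is labelled as empty nanoparticles. The vehicles differed between the arms, and the dose of Nano-Orz that the array mice received was not tied to them in the sources used here. Whether liver and hypothalamus came from the same mice is not stated in the labels, but 12 of 12 animal codes in the liver tables that were not used also head columns of the hypothalamus tables, so the arrays of both tissues may share mice. Within an arm the treated arrays are named Orz 1 to Orz 3 and the vehicle arrays Veh 1 to Veh 3 below.

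Endothelial cells line all blood vessels, and mural cells (smooth muscle cells around arteries and veins, pericytes around capillaries) wrap them from outside. The endothelium is specialised by organ. Liver sinusoids have an open, fenestrated endothelium that clears hyaluronan, immune complexes and other macromolecules from blood through scavenger and lectin receptors, whereas most brain capillaries are closed by tight junctions and move glucose and organic ions through transporters, which makes up the blood-brain barrier. Vascular endothelial growth factor (VEGF) and angiopoietin receptors, junction proteins and transcription factors of the ETS and SOXF families are shared by endothelia of most organs. RNA was taken from whole tissue, so fewer cells of a type and less RNA per cell cannot be told apart.

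Signals were log2 values of the distribution free weighted method (DFW), which spanned 5.26 to 16.4. The 6 arrays of a tissue and arm were almost the same in these values. Between 99.0% and 99.7% of probe sets had a range under 0.001 over the 6 arrays, and the median standard deviation (SD) of a member probe set was 6.86 millionths of a log2 unit in liver in the regular arm, 7.19 in liver in the nano arm, 6.64 in hypothalamus in the regular arm and 2.64 in hypothalamus in the nano arm. Over all probe sets the same medians were 3.23, 2.73, 2.29 and 1.84 millionths. Differences between treated and vehicle arrays are therefore given in millionths of a log2 DFW unit, as the order and relative size of very small numbers and not as fold changes. The medians of the 6 arrays themselves ranged over 3.67 and 7.12 millionths in liver and hypothalamus of the regular arm but over 92.6 and 135 millionths in those of the nano arm, so that centring the arrays can turn the sign of a small difference in the nano arm. By rank, 19 of 19 probe sets of hepatocyte genes were higher in liver and 13 of 13 of neuronal and 10 of 10 of oligodendrocyte genes were higher in hypothalamus, as the tissue labels imply. Other lists were mixed, with 4 and 8 of 13 astrocyte probe sets, 4 and 3 of 8 choroid plexus probe sets and 3 and 0 of 7 anterior pituitary probe sets higher in liver and in hypothalamus.

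The first comparison asked how vascular genes of the 2 organs differed. Because the tissues and arms appear to have been quantified separately, each probe set was expressed as its percentile rank among the 45101 probe sets of its own array, and liver and hypothalamus were compared with arm as a term in limma (a call needed an adjusted p under 0.05 and a difference of at least 5 rank points). Of the 59 member probe sets, 35 ranked higher in liver, where 39.4% of all probe sets did, and 11 ranked higher in hypothalamus, where 29.9% of all probe sets did. The median difference over the members was 10.1 rank points towards liver, against 1.63 over all probe sets. Within an arm the ranks of a member probe set spanned at most 0.0377 points over 6 arrays, while the arms of one tissue differed by a median of 2.99 points in liver and 3.07 in hypothalamus, so that 12 arrays of a tissue amount to little more than 2 separate readings and the limma p-values are too small. Tissue and quantification cannot be told apart, and ranks of different probe sets also carry the affinity of their probes, so for each gene only the shift of a probe set between tissues is compared.

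The sinusoidal genes showed the widest shift. Clec4g, a lectin of liver and lymph node sinusoidal endothelium, had mean ranks of 92.1 and 93.5 in liver in the regular and nano arms and 11.2 and 18.2 in hypothalamus at probe set 1427428_at, a difference of 78.1 points (standard error [SE] 0.597). Lyve1, a hyaluronan receptor of lymphatic and sinusoidal endothelium, had ranks of 76.4 and 86.9 in liver and 9.29 and 2.83 in hypothalamus at 1429379_at, a difference of 75.6 points (SE 1.81). Stab2, the scavenger receptor that takes up hyaluronan, stood at 86.9 and 88.7 in liver and at 29.6 and 32.9 in hypothalamus, 56.6 points apart (SE 0.161). The readings of these 3 probe sets did not overlap between the tissues.

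Among the other sinusoidal genes, Oit3, which encodes a secreted protein with a zona pellucida domain, had ranks of 80.2 and 84.3 in liver and 24.8 and 32.1 in hypothalamus, a difference of 53.8 points (SE 0.349). Stab1, the scavenger receptor related to Stab2, had 85.3 and 84.7 against 51.4 and 40.4, a difference of 39.1 points (SE 1.11). The second Lyve1 probe set, 1453128_at, had 71.6 and 75.3 against 39.1 and 36.3. Fcgr2b, the inhibitory receptor for immunoglobulin G that sinusoidal endothelium, B cells and macrophages carry, has 5 probe sets, and these did not behave alike. Its probe sets 1435477_s_at, 1451941_a_at, 1455332_x_at and 1435476_a_at ranked 55.2, 47.1, 33.4 and 11.9 points higher in liver. Ranks in the regular and nano arms were 87.96 and 89.6 in liver against 35.6 and 31.6 in hypothalamus at 1435477_s_at, 85.3 and 87.99 against 36.4 and 42.7 at 1451941_a_at, 84.05 and 85.4 against 52.1 and 50.5 at 1455332_x_at, and 87.2 and 88.3 against 76.2 and 75.6 at 1435476_a_at. The fifth, 1447622_at, lay near the bottom of every array (mean ranks 2.67 in liver and 1.31 in hypothalamus) and was not called. In the naming scheme of this array the suffixes _s_at and _x_at mark probe sets whose probes may also bind transcripts of other genes. The weaker Clec4g probe set, 1431575_at, had ranks of 28.5 and 49.4 in liver and 31.0 and 26.0 in hypothalamus, so its difference of 10.4 points came from the nano arm and the arms overlapped. In all, 11 of 12 sinusoidal probe sets were called higher in liver and none higher in hypothalamus.

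Of the 7 brain vessel probe sets, 5 were called higher in hypothalamus and none higher in liver. Slc2a1, the glucose transporter of the blood-brain barrier, ranked higher in hypothalamus at each of its 3 probe sets, with 92.4 and 91.8 in hypothalamus against 76.7 and 79.8 in liver at 1426599_a_at (13.9 points, SE 0.400), 91.0 and 91.7 against 79.0 and 76.1 at 1426600_at, and 94.0 and 94.6 against 82.2 and 81.7 at 1434773_a_at. Cldn5, the main claudin of endothelial tight junctions, had ranks of 83.2 and 85.0 in hypothalamus and 71.4 and 70.2 in liver, a difference of 13.3 points (SE 0.321). The remaining brain vessel genes did not separate the tissues so clearly. Abcb1a, the efflux pump P-glycoprotein, was called higher in hypothalamus at 1419758_at, where ranks of 62.1 and 60.4 overlapped those of 61.4 and 45.1 in liver, but not at 1419759_at, where they were 68.8 and 65.6 against 73.6 and 62.6. Slco1a4, an organic anion transporter that hepatocytes also express, ranked 79.8 and 87.4 in hypothalamus and 87.5 and 88.3 in liver and was not called.

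General endothelial genes mostly ranked higher in liver, with 19 of 26 probe sets called higher there, 2 called higher in hypothalamus and 5 not called. The largest differences towards liver were those of Cdh5 (VE-cadherin of endothelial junctions) at 1433956_at with 32.2 points, Robo4 (an endothelial receptor of the roundabout family) with 31.0 points, Eng (a co-receptor for TGF-beta ligands) at 1432176_a_at with 30.3 points, and Tie1 and Tek (receptors of the angiopoietin pathway) with 25.2 and 22.4 points. Kdr, the main signalling receptor for VEGF, ranked 83.6 and 84.8 in liver and 66.3 and 59.5 in hypothalamus. Flt1, the VEGF receptor that also acts as a decoy, stood apart from Kdr. Its probe set 1454037_a_at was called higher in hypothalamus by 13.8 points, although its ranks of 18.1 and 49.3 in liver overlapped those of 45.4 and 49.7 in hypothalamus, and its probe sets 1419300_at, 1440926_at and 1451756_at differed by fewer than 5 points. Sox17, a SOXF transcription factor of arterial endothelium, split between its probe sets, with 1421657_a_at called higher in liver by 6.26 points and 1429177_x_at called higher in hypothalamus by 13.3 points.

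Plvap, the protein of the diaphragms that bridge fenestrae and caveolae, ranked 90.5 and 92.1 in liver and 75.5 and 72.5 in hypothalamus. Differences towards liver were also called for Pecam1 (16.1), Vwf (15.9), Sox18 (14.5), Emcn (10.4), Esam (10.1), Cdh5 at 1422047_at (11.1), both probe sets of Erg (7.59 and 18.8) and 2 of the 4 probe sets of Egfl7 (20.1 and 8.92). Pecam1 and Esam are adhesion molecules of endothelial junctions, Vwf is the clotting factor stored by endothelium, Emcn is a surface sialomucin, Egfl7 is a secreted endothelial protein, and Erg and Sox18 are transcription factors. Direction for this group depended on the scale. The median log2 signal of an array was 0.68 higher in hypothalamus (7.21) than in liver (6.53), and on plain log2 values Pecam1, Vwf, Sox18, Emcn, Esam, Erg, Egfl7, Cdh5 at 1422047_at and Sox17 at 1421657_a_at were lower in liver (-0.21 log2 for Pecam1 and -0.41 for Emcn, for example). On log2 less the array's median these same probe sets were higher in liver (0.467 for Pecam1 and 0.266 for Emcn). Cdh5 at 1433956_at, Kdr, Tek, Tie1, Eng, Plvap and Robo4 were higher in liver by rank, by log2 and by log2 less the array's median.

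Mural genes were divided. The contractile genes Acta2 (smooth muscle actin), Tagln (transgelin) and Myh11 (smooth muscle myosin) were called higher in liver at 5 of 6 probe sets by 5.08 to 20.6 rank points. Each of the 5 was lower in liver on plain log2 values and higher there on log2 less the array's median. Genes used as pericyte markers went towards hypothalamus or towards neither tissue. Cspg4, the NG2 proteoglycan of pericytes and of oligodendrocyte precursors, had ranks of 64.5 and 64.8 in hypothalamus against 26.2 and 24.02 in liver at 1423341_at, a difference of 39.5 points (SE 0.264), and differed by 13.0 points at 1450944_at. Rgs5, a regulator of G protein signalling that is abundant in brain pericytes, was called higher in hypothalamus at 1420941_at (13.7 points) and 1420940_x_at (9.42 points) and not at 1417466_at or 1420942_s_at. Pdgfrb, the receptor for the growth factor PDGF-B that recruits pericytes, ranked 67.2 and 67.1 in hypothalamus and 68.6 and 65.1 in liver at 1417148_at and was not called at either of its probe sets.

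**Figure D1:**
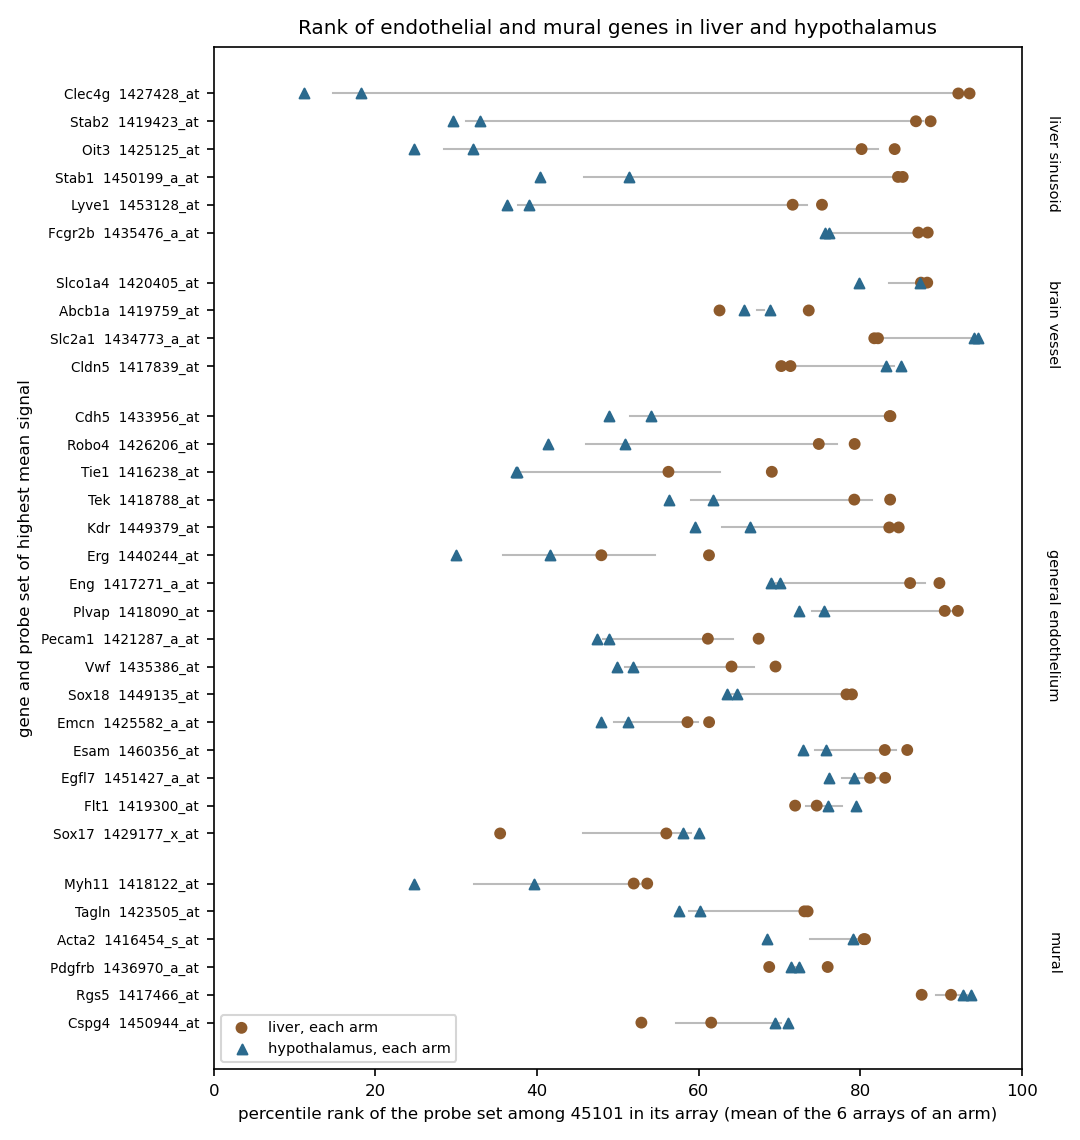
Percentile rank of each gene's probe set of highest mean signal among the 45101 probe sets of an array (x axis, 0 to 100), as the mean of the 6 arrays of an arm, in liver (circles) and hypothalamus (triangles). Grey lines join the means of the tissues. Stab1, Stab2, Lyve1, Clec4g and Oit3 lie far to the right in liver, and Fcgr2b (1435476_a_at) lies further right there by 11.9 points. Slc2a1 and Cldn5 lie further right in hypothalamus, and Flt1, Pdgfrb and Abcb1a lie close together in both.

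Across the 3 scales (rank, log2 and log2 less the array's median), 18 of the 35 probe sets called higher in liver kept that direction, as did 11 of the 11 called higher in hypothalamus. The rest of the 35 turned on plain log2 values only. On log2 less the array's median they remained higher in liver (0.467 for Pecam1 and 0.469 for Tagln, for example). By role, direction towards liver was kept on all 3 scales by 10 of 11 sinusoidal, 8 of 19 general endothelial and 0 of 5 mural probe sets. The 11 probe sets whose direction towards hypothalamus was kept were 5 of brain vessel, 2 of general endothelial and 4 of mural genes.

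The shifts of sinusoidal and brain vessel genes were then set against each other with 1 value per array, the median rank over the 6 sinusoidal genes less that over the 4 brain vessel genes, using for each gene its probe set of highest mean in the tissue. Sinusoidal genes had a median rank of 86.9 ± 0.906 (SD, n = 12 arrays) in liver and 34.8 ± 0.237 in hypothalamus, and brain vessel genes had 76.9 ± 1.01 and 83.9 ± 2.48. The shifts between tissues differed by 59.1 rank points (2-sided permutation test over arrays, p = 2e-05, the smallest that 100000 permutations can give, with the same limit on the number of separate readings). The difference was 54.6 points in the regular arm and 63.5 points in the nano arm alone (permutation p = 0.002 in each). Within an arm the arrays of a tissue hardly differed. Each tissue there gives little more than 1 reading, so these p-values reflect the number of arrays. For Lyve1, Clec4g and Fcgr2b the probe set of highest mean was not the same in both tissues, so probe affinity did not cancel for them. With 1 probe set per gene for both tissues, a setting added after seeing the data, the medians were 86.3 and 34.5 for sinusoidal and 76.9 and 83.9 for brain vessel genes, and the shifts differed by 58.8 points (permutation p = 2e-05). With same-numbered arrays of the tissues taken as pairs, the difference was 59.1 points (exact permutation p = 0.0005). The level of one list against the other within a tissue is not read, because their probes differ. These genes were listed as sinusoidal or brain vessel genes from what is known of the organs, so the direction of this difference is a check of the tissues and their markers.

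The promoters of the members were read for letters that factors of these cells are known to bind. Sequences of 300 bases (250 before and 50 after the annotated start, RefSeq, mouse build GRCm38.p6) were at hand for 20 of the 32 genes, some with several starts, 24 promoters in all. CAGGAA, 1 form of the sites of the ETS factors that endothelial cells share, was searched on both strands. CAGGAA was present in 13 of 24 member promoters (54.2%), against 30.6% of 32851 promoters of all genes. By gene it was present in 3 of 4 sinusoidal, 7 of 9 general endothelial, 2 of 3 mural and 0 of 4 brain vessel genes. The CArG box, the site of serum response factor at contractile genes (CC, a run of A or T, GG), was in none of the 24 member promoters and in 1.63% of all. A form with up to 1 letter changed, added after the first result was seen, was in 9 of 24 (37.5%) against 21.1% of all promoters. These are matches of letters only. Other forms of ETS sites were not searched, so a promoter without CAGGAA may still hold one.

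Stretches of 150 bases are shown, 5′ to 3′ on the strand of the gene, for Stab2 and Rgs5, which moved between tissues in opposite directions and hold CAGGAA, for Flt1, which holds no CAGGAA, and for Acta2 with its pair of near-matches to the CArG box. Flt1 and Acta2 are the genes of 2 of the 3 probe sets called in a treatment comparison. Capitals mark CAGGAA in Stab2 and Rgs5 and the CArG-like letters in Acta2. They lie 138 bases before the start in Stab2, 142 before it in Rgs5 and 84 and 34 before it in Acta2. Positions are chr10:87007943-87008092 (minus strand) for Stab2, chr1:169655351-169655500 (plus strand) for Rgs5, chr5:147726012-147726161 (minus strand) for Flt1 and chr19:34255374-34255523 (minus strand) for Acta2.
Stab2: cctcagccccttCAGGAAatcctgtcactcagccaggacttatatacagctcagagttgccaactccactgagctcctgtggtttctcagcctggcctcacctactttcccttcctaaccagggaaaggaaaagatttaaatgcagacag
Rgs5: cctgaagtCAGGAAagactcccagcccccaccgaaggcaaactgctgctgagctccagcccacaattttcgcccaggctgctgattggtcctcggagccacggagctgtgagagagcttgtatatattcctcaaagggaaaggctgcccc
Flt1: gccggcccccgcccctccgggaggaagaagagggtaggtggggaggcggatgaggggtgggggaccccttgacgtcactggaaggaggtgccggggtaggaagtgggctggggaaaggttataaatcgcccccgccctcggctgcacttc
Acta2: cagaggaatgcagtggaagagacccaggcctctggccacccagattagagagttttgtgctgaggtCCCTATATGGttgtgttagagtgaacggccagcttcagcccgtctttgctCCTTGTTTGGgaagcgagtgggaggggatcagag

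Treated and vehicle arrays were then compared in each tissue and arm with the rank product, the method named for this study, which ranks each probe set in all 9 pairs of a treated and a vehicle array and calls it where the estimated proportion of false positives (pfp) is under 0.05. Counts of probe sets whose 3 treated arrays all lay above or all below the 3 vehicle arrays are given beside it. Since an exact permutation test of 3 against 3 arrays cannot go below p = 0.1 (2-sided), limma across all probe sets was used as the second test.

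In liver of the regular arm, the rank product called no member probe set in either direction, and over the whole array it called 0.182% higher and 0.215% lower. Without overlap, 5 of 59 member probe sets were higher in treated arrays, against 5.02% of all probe sets, and 1 was lower, against 4.23%. None passed limma after adjustment and 5 had an unadjusted p under 0.05 (8.47%, against 4.58% of all probe sets). Receptors of the sinusoid had the smallest limma p among the higher ones. Fcgr2b at 1435476_a_at had a vehicle mean of 8.60 log2, and its distances from that mean were 30.9, 43.0 and 29.3 millionths in Orz 1 to 3 and -10.5, -1.97 and 12.4 in Veh 1 to 3, a difference of 34.4 millionths (SE 7.31, limma adjusted p = 1). All treated arrays lay above all vehicle arrays, but after quantile normalization the difference was 0.

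Stab2 had a vehicle mean of 8.57 log2 and distances of 28.5, 43.7 and 64.8 millionths in Orz 1 to 3 and -9.05, 13.6 and -4.57 in Veh 1 to 3, a difference of 45.7 millionths (SE 11.6, limma adjusted p = 1). The groups did not overlap here either, and quantile normalization again gave 0. The other 3 probe sets without overlap were those of Eng at 1432176_a_at (65.3 millionths, SE 21.1), Flt1 at 1451756_at (3.75, SE 1.41) and Cspg4 at 1450944_at (1.93, SE 0.746). Plvap was the 1 probe set lower in every treated array. Its vehicle mean was 9.06 log2, with distances of -14.1, -21.8 and -5.92 millionths in Orz 1 to 3 and 6.41, -2.59 and -3.81 in Veh 1 to 3, a difference of -13.9 millionths (SE 5.15, limma adjusted p = 1).

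By role, the difference was positive for 9 of 12 sinusoidal, 1 of 7 brain vessel, 23 of 26 general endothelial and 10 of 14 mural probe sets, 43 of 59 members in all (72.9%, against 52.0% of all probe sets). Median differences were 9.69 millionths for sinusoidal, 2.19 for general endothelial, 1.91 for mural and -4.11 for brain vessel probe sets. Widest apart among the sinusoidal genes were Oit3, with 85.0 millionths (SE 52.8), and Lyve1 at 1429379_at, with -89.4 millionths (SE 226), and both had wide errors. The count of positive differences was made after the values were seen. It moved between 37 and 46 with 1 array left out, was 37 after centring (36.3% of all probe sets) and 10 after quantile normalization (17.7% of all).

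In liver of the nano arm, the rank product again called no member, with 0.297% of the array called higher and 0.18% lower. Without overlap, 2 member probe sets were higher in treated arrays (4.34% of all probe sets) and 3 were lower (4.67% of all). None passed limma after adjustment and 4 had an unadjusted p under 0.05 (6.78%, against 4.34% of all probe sets). Cspg4 at 1423341_at had the smallest limma p of any member. Its vehicle mean was 6.04 log2 and its distances were 8.07, 8.77 and 6.81 millionths in Orz 1 to 3 and -0.297, -1.07 and 1.37 in Veh 1 to 3, a difference of 7.89 millionths (SE 0.937, limma adjusted p = 1). The treated arrays lay close together and above the vehicle arrays, at a signal near the bottom of the scale.

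Flt1 at 1440926_at had a vehicle mean of 6.67 log2, distances of 1.60, 1.45 and 2.57 millionths in Orz 1 to 3 and -0.470, 0.687 and -0.216 in Veh 1 to 3, and a difference of 1.88 millionths (SE 0.604). The lower probe sets were 2 of Fcgr2b and 1 of Slc2a1 (1426599_a_at, -5.97 millionths, SE 4.20). Fcgr2b at 1455332_x_at had a vehicle mean of 8.22 log2, with -9.77, -16.4 and -10.05 millionths in Orz 1 to 3 and -3.43, 3.23 and 0.198 in Veh 1 to 3, a difference of -12.1 (SE 2.70, limma adjusted p = 1). At 1435476_a_at the vehicle mean was 8.57 log2, with -18.3, -33.6 and -16.3 millionths in Orz 1 to 3 and -9.95, 7.07 and 2.88 in Veh 1 to 3, a difference of -22.7 (SE 6.91, limma adjusted p = 1). Both Fcgr2b differences took the opposite sign when the arrays were centred on their medians (34.8 and 24.2 millionths), where the median of treated less that of vehicle arrays averaged -46.9 millionths.

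Positive differences were found for 3 of 12 sinusoidal, 2 of 7 brain vessel, 10 of 26 general endothelial and 8 of 14 mural probe sets, 23 of 59 in all (39.0%, against 48.0% of all probe sets). The count was 20 to 27 with 1 array left out, 39 after quantile normalization and 56 after centring, where 45.8% and 98.7% of all probe sets were positive. Lyve1 had the widest spread, with differences of 545 (SE 483) and 258 millionths (SE 193) at its probe sets 1429379_at and 1453128_at. Fibroblast genes Lum, Col3a1 and Col1a2 were called higher in these treated arrays (596, SE 1337, 588, SE 2374, and 869.8 millionths, SE 1922, each with an error wider than the difference), and their part in the vascular values was not tested.

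Because Fcgr2b at 1435476_a_at was higher in every treated array of the regular arm and lower in every one of the nano arm, the arms were set against each other. The interaction of arm and treatment in liver had an unadjusted limma p of 0.000408 and an adjusted p of 0.456 for this probe set. No member passed the interaction after adjustment in liver, where 0% of all probe sets did, and 6 of 59 members had an unadjusted p under 0.05, against 5.5% of all probe sets. Of the scales tried, only the deposited one gave opposite signs. The differences were 33.7 and 24.2 millionths in the regular and nano arms after median centring, and 0 and 104 after quantile normalization.

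Hypothalamus of the regular arm was the 1 comparison in which the rank product called members. It called 3 member probe sets higher in treated arrays and none lower, with 0.177% of the array called higher and 0.379% lower. They belong to a smooth muscle gene and to a pair of general endothelial genes. The probe sets called for Acta2 and Sox17 carry the suffixes _s_at and _x_at, so their probes may also bind transcripts of other genes. Acta2 at 1416454_s_at had a vehicle mean of 8.08 log2. Its distances from that mean were 421.1, 392.2 and 212.9 millionths in Orz 1 to 3 and -82.1, 274.2 and -192.1 in Veh 1 to 3, a difference of 342 millionths (SE 143.5, pfp 0.0168). Veh 2 lay above Orz 3, so the groups overlapped.

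Sox17 at 1429177_x_at had a vehicle mean of 7.58 log2 and distances of 375, 93.1 and 434 millionths in Orz 1 to 3 and -120.2, 104 and 16.2 in Veh 1 to 3, a difference of 301 millionths (SE 114, pfp 0.0228). Orz 2 lay below Veh 2. The second Sox17 probe set, 1421657_a_at, had a difference of 13.5 millionths (SE 17.7), and the other Acta2 probe sets had 0.0303 (SE 1.49) and -0.544 (SE 0.864). Neither call was thus shared by a second probe set of the gene. The other Acta2 probe sets ranked low in these arrays (7.25 at 1444105_at and 10.7 at 1456658_at, against 68.5 for the called one). Their values therefore say little about the Acta2 call.

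Flt1 at 1419300_at had a vehicle mean of 8.53 log2 and distances of 187, 61.1 and 117 millionths in Orz 1 to 3 and 20.5, 26.9 and -47.4 in Veh 1 to 3, a difference of 122 millionths (SE 40.2, pfp 0.0326). Every treated array lay above every vehicle array. The other 3 Flt1 probe sets had positive differences of 46.1 (SE 25.1), 5.24 (SE 2.84) and 4.89 millionths (SE 3.65). In the nano arm the same probe sets of Acta2, Sox17 and Flt1 had differences of -11.9, -0.54 and 2.81 millionths.

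**Figure D2:**
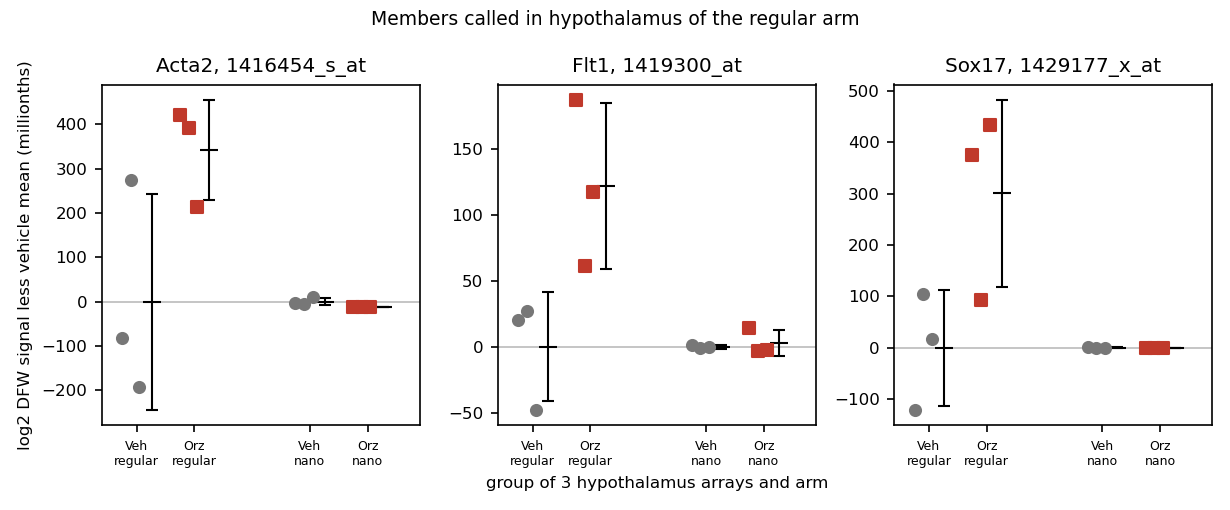
Log2 DFW signal less the mean of the vehicle arrays of the arm, in millionths of a log2 unit (y axis, a scale of its own in each panel), for Acta2, Flt1 and Sox17 in the hypothalamus arrays of both arms. Points are arrays, and bars are the mean ± SD of 3 arrays. In the regular arm treated Flt1 arrays lie above all vehicle arrays, while Acta2 and Sox17 overlap, and in the nano arm all values lie near 0.

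The rank product ranks unscaled differences, so it calls probe sets whose values spread widely. A wider spread within groups than those of Acta2, Flt1 and Sox17 was found in 1.53%, 3.51% and 1.75% of all probe sets in the regular arm. Under limma, which scales by the spread, their adjusted p-values were 0.872, 0.871 and 0.871. In that test 6 member probe sets had an unadjusted p under 0.05 (10.2%, against 5.68% of all probe sets). The calls also changed when single arrays were left out, but so did the number of probe sets called higher over the whole array. That number was 80 with all 6 arrays. Dropping a treated array (Orz 1, 2 or 3) cut it to 12, 18 or 25. Dropping a vehicle array (Veh 1, 2 or 3) cut it to 73, 41 or 65. The loss of a member call therefore does not by itself tie that call to the array left out. Acta2 was no longer called without Orz 1 (pfp 0.395) or Orz 2 (pfp 0.177). Flt1 was not called without Orz 1, 2 or 3 (pfp 0.529, 0.161 and 0.121), Veh 2 (0.0537) or Veh 3 (0.0632), and Sox17 not without Orz 1, 2 or 3 (0.522, 0.0587 and 0.129) or Veh 1 (0.0653).

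Without overlap, 4 member probe sets of the regular arm were higher in treated hypothalamus (5.87% of all probe sets) and 1 was lower (5.04% of all). Beside Flt1 these were Kdr (4.01 millionths, SE 2.24), Emcn (10.7, SE 3.66) and Myh11 at 1448962_at (22.4, SE 7.31). The lower one was Fcgr2b at 1455332_x_at, with a vehicle mean of 7.34 log2, -3.49, -1.88 and -3.06 millionths in Orz 1 to 3 and -0.644, 1.07 and -0.429 in Veh 1 to 3, and a difference of -2.81 millionths (SE 0.737, limma adjusted p = 0.871), which became 10.7 after quantile normalization. Many other members had positive differences that overlapped, among them Sox18 (95.1 millionths, SE 46.1), Rgs5 at 1417466_at (101 millionths, SE 37.7), Tek (32.5, SE 18.02) and Abcb1a at 1419758_at (76.4, SE 72.5).

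The difference was positive for 24 of 26 general endothelial, 7 of 7 brain vessel, 12 of 14 mural and 5 of 12 sinusoidal probe sets, 48 of 59 in all (81.4%, against 49.2% of all probe sets). Median differences were 6.13, 14.2, 6.42 and -0.44 millionths in that order. The 2 general endothelial probe sets below 0 were those of Erg at 1425370_a_at (-1.79 millionths) and Egfl7 at 1435823_x_at (-0.233). This count too was made after the values were seen. It was 40 to 50 with 1 array left out (40 without Veh 3), 38 after centring (28.2% of all probe sets) and 35 after quantile normalization (40.8% of all).

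The values of Veh 3 in this arm stood out. It was the lowest of the 6 arrays for 30 of 59 member probe sets, against 15.7% of all probe sets, and its median distance from the arm's mean was -1.11 SD over the members, -1.43 over brain vessel, -1.14 over mural and -0.98 over general endothelial probe sets. The same array was the highest for 15 of 19 probe sets of hepatocyte genes (median 1.47 SD) and the lowest for 8 of 11 of meningeal genes (median -1.75 SD). The summed log2 signal of the hepatocyte list lay -66944 to -19776 millionths from the vehicle mean in treated arrays and -44108 to 49315 in vehicle arrays, with Alb (-42284.5 millionths), Serpina1c (-2169.5) and 1 probe set of Ttr (-1224.9) called lower, and 17 of 19 probe sets negative. For the meningeal list the sums ran from -441 to 1142 millionths in treated and from -2618 to 1687 in vehicle arrays, with none called. Genes of the anterior pituitary, which lies below the hypothalamus, were positive at 7 of 7 probe sets, with Cga called higher (31641 millionths, SE 40515). Most differences were negative for genes of other brain cells in these arrays, which were positive at 0 of 10 microglial, 1 of 10 oligodendrocyte, 3 of 13 astrocyte and 4 of 13 neuronal probe sets, none of them called. Without Veh 3, Acta2 and Sox17 remained called. The part of these other cells in the vascular values was not tested.

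For hypothalamus of the nano arm the rank product called no member, with 0.242% of the array called higher and 0.723% lower. Without overlap, 4 member probe sets were higher in treated arrays (6.18% of all probe sets) and 8 were lower (4.95% of all). None passed limma after adjustment and 9 had an unadjusted p under 0.05 (15.3%, against 6.1% of all probe sets). The higher ones were led by Rgs5, at probe sets with the suffixes _x_at and _s_at, whose probes may also bind transcripts of other genes. At 1420940_x_at its vehicle mean was 7.92 log2, with 32.5, 34.3 and 9.67 millionths in Orz 1 to 3 and 0.196, 8.87 and -9.06 in Veh 1 to 3, a difference of 25.5 millionths (SE 8.70, limma adjusted p = 0.803). At 1420942_s_at the vehicle mean was 7.52 log2, with 26.2, 17.5 and 20.4 millionths in Orz 1 to 3 and -2.49, -11.7 and 14.2 in Veh 1 to 3, a difference of 21.4 millionths (SE 7.37, limma adjusted p = 0.803).

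The remaining probe sets of Rgs5 had 19.3 (SE 11.0) and 5.80 millionths (SE 4.69) with overlap, so that all 4 were positive, as they were in the regular arm (101, 10.6, 16.5 and 54.4 millionths). The vehicle arrays of the arms are different, and neither set passed a test. Flt1 at 1440926_at (3.37 millionths, SE 1.19) and Pdgfrb at 1417148_at (2.43, SE 0.851) were the other probe sets higher in every treated array.

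The lower probe sets included contractile genes. Tagln had a vehicle mean of 7.44 log2, with -65.5, -45.8 and -20.3 millionths in Orz 1 to 3 and -14.3, -0.679 and 15.001 in Veh 1 to 3, a difference of -43.9 millionths (SE 14.3, pfp 0.0533, limma adjusted p = 0.788), and all 3 probe sets of Acta2 were lower in every treated array (-11.9, -2.15 and -1.38 millionths). Of the Acta2 probe sets, 1444105_at and 1456658_at ranked low in these arrays (12.1 and 13.7, against 79.1 at 1416454_s_at). Tagln was called lower without Orz 3, together with Lyve1 at 1453128_at (-14.2 millionths in all arrays, SE 7.41). Sox18 had a vehicle mean of 7.77 log2, with -5.16, -3.14 and -2.30 millionths in Orz 1 to 3 and 1.503, -1.24 and -0.262 in Veh 1 to 3, a difference of -3.53 millionths (SE 1.11, limma adjusted p = 0.788). Cdh5 at 1433956_at (-8.49, SE 3.22) and Eng at 1417271_a_at (-0.710, SE 0.352) were lower in every treated array as well. These negative signs depended on the scale, since the median of treated less that of vehicle arrays averaged -45.2 millionths. Centred on the medians, Tagln had 1.32 and Sox18 41.7 millionths, and no member was lower in every treated array.

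Of all 59 probe sets, 29 had a positive difference (49.2%, against 51.7% of all probe sets), made up of 3 of 12 sinusoidal, 6 of 7 brain vessel, 12 of 26 general endothelial and 8 of 14 mural probe sets. The count was 27 to 33 with 1 array left out, and 53 and 58 after quantile normalization and centring, where 78.6% and 98.8% of all probe sets were positive. Genes of tissue at the surface and in the ventricles of the brain moved in this arm. Meningeal genes were negative at 11 of 11 probe sets with 8 called lower (Ptgds at 1423860_at -15300 and Igf2 at 1448152_at -12485 millionths), choroid plexus genes had 6 of 8 called lower (Kl -13274 and Kcnj13 -13133 millionths), and fibroblast genes had 6 of 17 called lower. Ttr, a gene of both choroid plexus and hepatocytes, was called lower at 4 probe sets. Anterior pituitary genes were negative at 7 of 7 probe sets, with Cga called lower (-20290 millionths, SE 9517), and microglial genes were negative at 10 of 10 with none called. The rank product also called 3 Gh probe sets of the pituitary list higher although their mean differences were -4765 (SE 9028), -3425 (SE 9500) and -4430 millionths (SE 10084), so a call can go against the mean where arrays spread widely. The summed log2 signal of the meningeal list lay -59467 to -3080 millionths from the vehicle mean in treated arrays and -4288 to 5498 in vehicle arrays, and that of the choroid plexus list lay -38610 to -27254 in treated and -29341 to 17410 in vehicle arrays. Veh 3, which was the highest of the 6 arrays for 10 of 11 meningeal probe sets, was also the highest for Tagln and for 2 of the 3 Acta2 probe sets. What these cells contribute to Acta2, Tagln and Lyve1, which vessels of the meninges carry too, was not tested.

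No member passed the interaction of arm and treatment in hypothalamus after adjustment, where 0.00443% of all probe sets did, and 7 of 59 had an unadjusted p under 0.05, against 6.87% of all probe sets. The interaction had adjusted p-values in limma of 0.694 for Acta2 at 1416454_s_at, 0.635 for Flt1 at 1419300_at and 0.665 for Sox17 at 1429177_x_at.

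**Figure D3:**
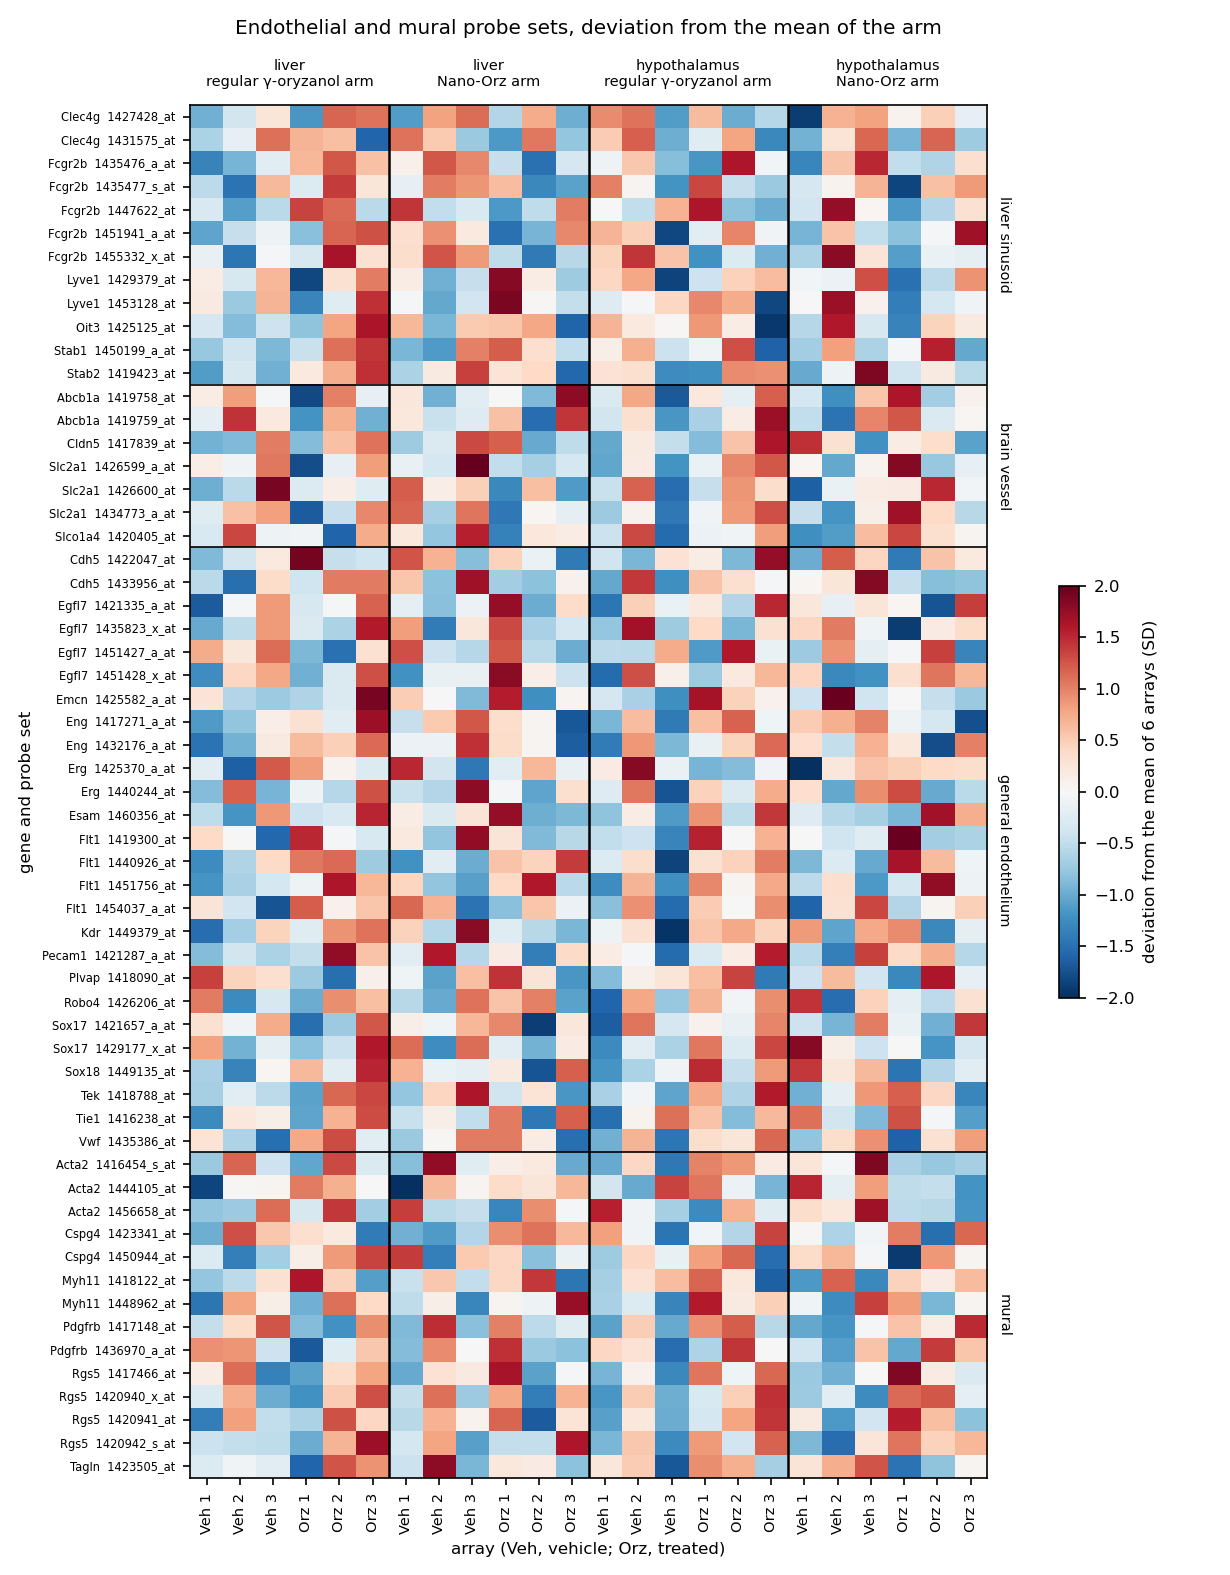
Deviation of each of the 59 member probe sets (rows, grouped by role) from the mean of the 6 arrays of its tissue and arm, in SD units (colour, blue below and red above the mean), for 24 arrays (columns). In hypothalamus of the regular arm the column of Veh 3 is mostly blue from brain vessel to mural genes (lowest in 30 of 59), and in liver of the regular arm the column of Orz 3 is mostly red (highest in 25 of 59).

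How the members varied together within the 6 arrays of an arm is given as a description, with treatment included. The mean Pearson correlation over pairs of probe sets of different genes was 0.245 in hypothalamus and 0.178 in liver of the regular arm but 0.011 and 0.038 in those of the nano arm, against 0.002 to 0.004 over all probe sets. These correlations share 6 arrays and their treatment groups. Among the member lists, brain vessel genes had the highest mean, 0.762 in hypothalamus of the regular arm, where they also went with general endothelial genes (0.494). Lists of other cells ran there from 0.009 (choroid plexus) to 0.736 (meninges), with 0.574 for anterior pituitary and 0.425 for hepatocyte genes. Meningeal genes had 0.826 in hypothalamus of the nano arm. High means were thus not particular to vascular genes. The brain vessel mean was 0.329 in hypothalamus of the nano arm and 0.235 and 0.064 in liver of the regular and nano arms. General endothelial genes had 0.406 in hypothalamus of the regular arm and between -0.021 and 0.187 elsewhere. Sinusoidal genes had 0.369 and -0.066 in liver and 0.287 and 0.390 in hypothalamus of the regular and nano arms, and mural genes did not exceed 0.202 anywhere. The members of hypothalamus in the regular arm had a mean correlation of -0.202 with hepatocyte genes and 0.292 with meningeal genes.

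In liver of the regular arm, Orz 3 was the highest array for 25 of 59 member probe sets and Orz 2 for 15, while Veh 1 was the lowest for 20 and Orz 1, a treated array, for 14. Median distances of the members in Orz 3, Orz 2, Veh 1 and Orz 1 were 0.832, 0.585, -0.542 and -0.451 SD. Over all probe sets the same medians were 0.0318, -0.0417, -0.0256 and 0.110 SD. The sinusoidal list had medians of -0.384, 1.11 and 1.06 SD in Orz 1 to 3 and -0.584, -0.603 and -0.0717 SD in Veh 1 to 3, so Orz 1 lay with the vehicle arrays. In liver of the nano arm Orz 2 was the lowest for 19 members and no other array for more than 13. Orz 3 was the highest for 21 members in hypothalamus of the regular arm. In the nano arm no hypothalamus array was the highest or the lowest for more than 14, and median distances of the members ran from -0.40 to 0.26 SD.

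**Figure D4:**
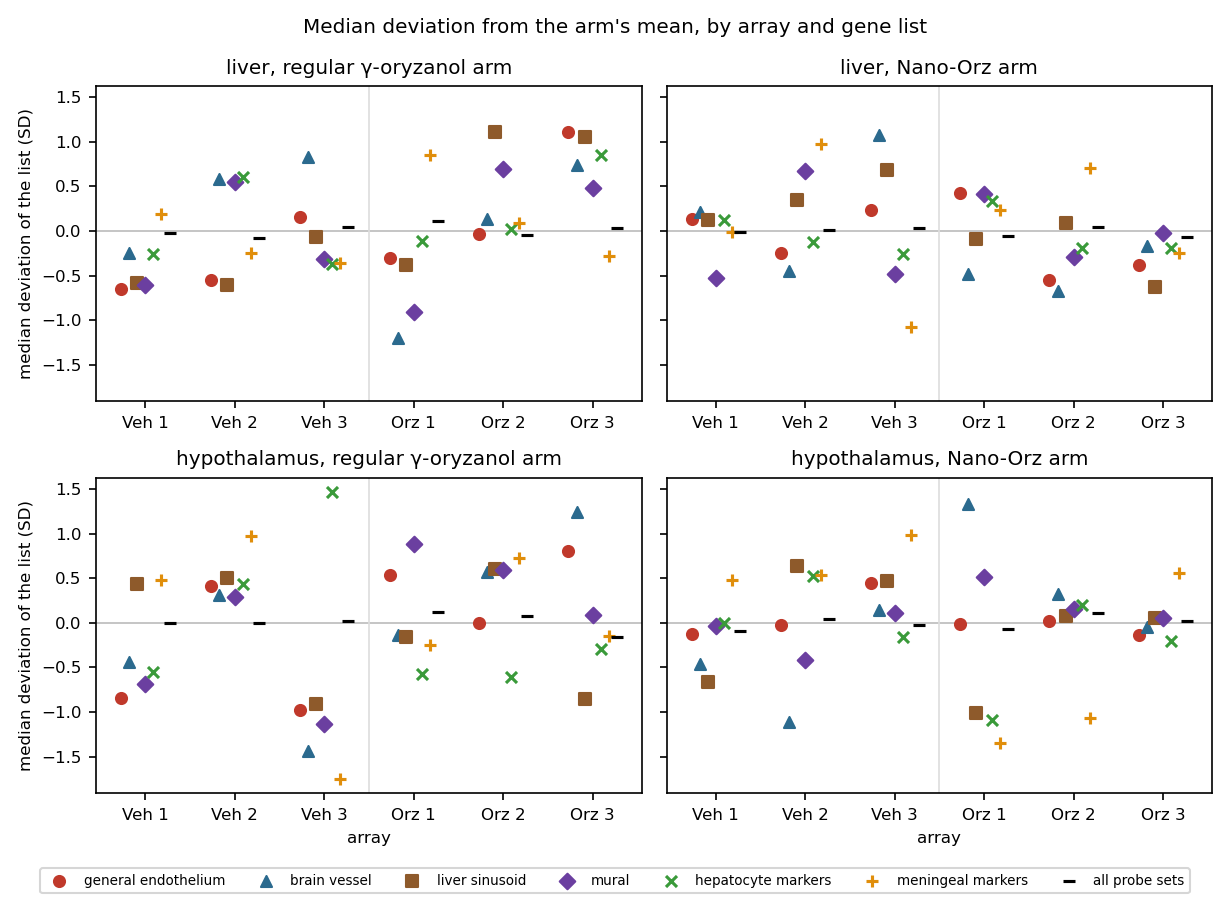
Median deviation of each gene list from the mean of its arm, in SD units (y axis), for every array (x axis, 4 panels by tissue and arm), with lists of vascular genes as filled symbols, hepatocyte and meningeal markers as crosses and all probe sets as dashes. In hypothalamus of the regular arm Veh 3 holds brain vessel genes at -1.43, meningeal genes at -1.75 and hepatocyte genes at 1.47 SD, while all probe sets stay near 0 in every array.

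Where a gene had several probe sets, these often differed in sign. Of the 16 genes with more than 1 probe set, all probe sets had the same sign in 11 genes in liver of the regular arm, 9 in liver of the nano arm, 10 in hypothalamus of the regular arm and 8 in that of the nano arm. Over the 4 comparisons, 7 probe sets had a positive difference in each and 1 a negative difference in each.

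The wider vascular pathways were covered by 6 further lists with 56 genes and 105 probe sets (VEGF ligands and co-receptors, angiopoietins with TGF-beta family ligands and receptors, the Notch pathway, endothelial transcription factors, other endothelial genes, and mural genes and signals). By rank product none of the 105 was called higher in any of the 4 comparisons, and 1 was called lower, Maf at 1456060_at in hypothalamus of the nano arm (-125 millionths, SE 63.7, pfp 0.0386). Maf encodes a transcription factor of sinusoidal endothelium that other cell types use as well. Without overlap, 10 of the 105 were higher and 2 lower in liver of the regular arm (5.02% and 4.23% of all probe sets), 1 and 2 in liver of the nano arm (4.34% and 4.67%), 7 and 6 in hypothalamus of the regular arm (5.87% and 5.04%) and 5 and 6 in that of the nano arm (6.18% and 4.95%). None passed limma after adjustment, and 8, 2, 9 and 9 had an unadjusted p under 0.05, against 4.58%, 4.34%, 5.68% and 6.1% of all probe sets.

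By tissue, 62 of the 105 ranked higher in liver and 18 in hypothalamus, with the median difference towards liver in each of the 6 lists. Endothelial transcription factors leaned furthest, with 18 of 23 probe sets higher in liver and 1 in hypothalamus (median 17.3 rank points), followed by mural genes and signals, with 11 and 3 of 17 (median 15.4 points). The Notch pathway had 5 and 3 of 14 (median 3.29 points) and VEGF ligands and co-receptors had 8 and 5 of 17 (median 3.86 points). As with the general endothelial members, a lean by rank towards liver can turn on the log2 scale.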

How the data were processed

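Total RNA of whole liver and hypothalamus was hybridised to Affymetrix mouse arrays, 24 in all. The authors quantified the scans with the DFW method and deposited log2 signals, which were used as given. Genes were named from the platform annotation. The 32 members and all gene lists were chosen with earlier results of these data known. Groups came from the sample titles. Treated and vehicle arrays were compared within tissue and arm by rank product (9 pairs, 100 permutations, pfp under 0.05), by counts without overlap and by limma 3.58.1 in R 4.3.3 on all 45101 probe sets with Benjamini-Hochberg adjustment, including the interaction of arm and treatment. Tissues were compared on percentile ranks within arrays. Python 3.11.15 with numpy 2.4.6, pandas 2.3.3, scipy 1.17.1 and matplotlib 3.10.9 was used. The tests were tried on simulated data with 200 changed probe sets. For the treatment comparisons the simulated shifts were far larger than most member differences, and noise was independent between probe sets. The trial therefore does not give the power of the tests at the differences found. The labels call the 3 arrays of a group biological replicates and give no batch. The small number of arrays limits the precision.

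Every member is named with its values. Values in every array are given for members called by rank product, and otherwise for up to 2 probe sets per direction of smallest limma p among those without overlap. For tissues, ranks are given for all sinusoidal and brain vessel genes and for the 3 genes of largest difference each way, and other genes are named where called. Alternatives were a stricter pfp of 0.01, median centring, quantile normalization, restricting the tests to probe sets of higher mean, scaling by SD, pairing by replicate number, limma and leaving out each array. A further 24 columns in 4 tables carry animal codes that could not be matched to a sample and were not used. Of the codes in the liver tables, 12 of 12 recur in the hypothalamus tables, so both tissues may come from the same mice, whereas the tests between tissues treat arrays as separate. Promoters came from RefSeq.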

Additional observations from a re-analysis of the deposited data

Results flagged for a closer look

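Fcgr2b at probe set 1435476_a_at had opposite differences in liver in the 2 arms, 34.427 millionths of a log2 unit with regular γ-oryzanol and -22.712 with Nano-Orz, each without overlap between 3 treated and 3 vehicle arrays. The interaction of arm and treatment had an adjusted p of 0.456 in limma (unadjusted 0.000408), so the difference between the arms did not pass after adjustment over all probe sets. Of the scales tried, only the deposited one gave opposite signs, and the differences were 33.7 and 24.2 millionths after median centring and 0 and 104 after quantile normalization. The cause was not tested.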

How the results depend on the processing

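The largest changes came from scale and from leaving out single arrays. In hypothalamus of the regular arm, the 3 members called higher became 0 with a pfp under 0.01, after quantile normalization, with differences over SD, in limma and in limma with replicate block (5 and 3 at an unadjusted p under 0.05 in the same direction), and 0 to 2 with 1 array left out (0 without Orz 1 or Orz 2, 1 without Orz 3). They became 2 with the replicate block in the rank product (without Sox17) and 2 when the tests were restricted to probe sets of higher mean (without Flt1). Over the whole array, 80 probe sets called higher became 13 with a pfp under 0.01, 6 after quantile normalization and 24 with the restriction. With 1 array left out they became 12 to 73. With differences over SD the whole array had 351 such calls, and with the replicate block 105. In liver, members called higher went from 0 to 1 with the replicate block in the regular arm (Eng), with differences over SD in both arms (Fcgr2b, Cspg4) and, as ranges of 0 to 1, without single arrays (Eng without Veh 3 in the regular arm, Lyve1 without Veh 1 in the nano arm). In hypothalamus of the nano arm, calls lower went from 0 to 2 with the block and, in a range of 0 to 2, without Orz 3 (Lyve1, Tagln), and calls higher from 0 to 1 with the block (Rgs5). Calls over the whole array rose too in each setting that added a member, for example from 82 to 150 with the block in liver of the regular arm. Rank correlations of deviations did not settle whether replicate numbers pair the arrays (4 of 12 same-numbered pairs over 0.1, range -0.195 to 0.374). In hypothalamus, same-numbered pairs ran from 0.0687 to 0.374 and other-numbered pairs from -0.347 to 0.0292. In liver, same-numbered pairs ran from -0.195 to 0.218 and other-numbered pairs from -0.242 to 0.205.

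Members without overlap changed with quantile normalization from 5 to 0 higher and 1 to 0 lower (liver, regular), 2 to 1 and 3 to 0 (liver, nano), 1 to 0 lower (hypothalamus, regular), and 4 to 2 and 8 to 0 (hypothalamus, nano). With median centring they became 32 higher and 0 lower (liver, nano), 2 higher (hypothalamus, regular) and 0 lower (hypothalamus, nano). Differences over all probe sets moved as well. After centring 98.7%, 28.2% and 98.8% of them were positive, in that order. The share of all probe sets without overlap in these settings is not given here, so these counts are not read as a result about the members. Between tissues, 35 members higher in liver and 11 in hypothalamus became 14 and 23 on log2 values with a difference of at least 0.5, 22 and 4 with 1 probe set per gene, and 26 and 10 on log2 less the array's median, a scale added after seeing the data. The difference of 59.1 rank points between the shifts of sinusoidal and brain vessel genes lay between 50.2 and 63.5 in all other settings. The cause of these changes was not tested. Acta2 at 1416454_s_at and Sox17 at 1421657_a_at were called higher in liver by rank (6.71 and 6.26 points) and higher in hypothalamus on log2 values (-0.51 and -0.51 log2, liver less hypothalamus). The other 33 probe sets called higher in liver were called so on log2 values (14) or not called (19). The spread between arrays, a few millionths for most probe sets, limits all treatment comparisons.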
